A study of Homo sapiens with 4 samples.

Results

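AP-1 is a transcription factor made of pairs of basic leucine zipper (bZIP) proteins, and the genes of its FOS and JUN families are described here in libraries labelled as HepG2, a human liver cancer cell line. FOS, FOSB, FOSL1 and FOSL2 encode the FOS-type subunits, JUN, JUNB and JUND the JUN-type subunits, and ATF3 and JDP2 are bZIP proteins that pair with JUN proteins and often act as repressors. These 9 genes were chosen by symbol, and all 9 were found among the 57979 genes of the deposited table and among the 13246 genes with a mean above 1 FPKM over the 4 libraries. FPKM is a fragment count divided by the length of the transcript and by the total of the library, so that levels of different genes can be set side by side per length.

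Polyadenylated RNA was sequenced from wild-type cells (WT, 2 libraries) and from cells with the gene of TXNDC9, a thioredoxin domain protein, targeted (TXNDC9-KO, 2 libraries). The study used CRISPR-Cas9 delivered with the lentiCRISPRv2 plasmid and guides to the first exon, and grew the cells in DMEM with fetal bovine serum. Whether the targeted cells were 1 clone or a pool, and whether the WT cells carried an empty vector, is not given for these libraries. The labels do not say that the libraries of a group came from separate cultures, so errors and p-values measure only the spread between these libraries, which may be technical.

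FOS-type proteins need a JUN-type partner to bind DNA, while JUN-type proteins can also pair with each other. The pairs bind the AP-1 site, and pairs with ATF proteins also bind the related cyclic AMP response element. FOS and FOSB are classic immediate early genes, silent or low in resting cells and switched on for a short time by serum, growth factors or stress through MAP kinases, serum response factor (SRF) and CREB. JUND is transcribed at a steadier level in most cells and is often linked to slower growth, and in liver cells JUN is known for its part in regeneration and in the early steps of liver cancer.

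Markers of hepatocytes went against the HepG2 label. All 8 markers (ALB, AFP, APOA1, APOB, TTR, SERPINA1, FGB and HNF4A) stayed under 1 FPKM in every library, and the highest value was 0.449 FPKM for AFP in WT 2. Their summed level was 0.351 and 0.716 FPKM in the WT libraries and 0.0479 and 0.121 FPKM in the TXNDC9-KO libraries, and APOA1 was listed at 0 in all 4. Of 4 fibroblast markers, COL1A1 and COL3A1 were present in every library and made up most of the summed level of the list. That sum was 53.0 and 48.8 FPKM in WT against 35.4 and 31.8 FPKM in TXNDC9-KO. LUM stayed under 1 FPKM in every library. DCN was low, at 1.37 and 1.16 FPKM in WT and 0.949 and 0.935 FPKM in TXNDC9-KO. The 4 leukocyte markers summed to between 3.90 and 7.40 FPKM, mostly from CD68, with CD3E listed at 0 in all 4 libraries. The 4 endothelial markers summed to 0.803 and 1.22 FPKM in WT and 4.41 and 3.42 FPKM in TXNDC9-KO, mostly from CDH5, with KDR listed at 0 in all 4 libraries. The part of other cells in the results below was not tested, and the libraries are called by their labels.

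TXNDC9 itself was at 35.1 and 37.3 FPKM in WT and 21.9 and 27.6 FPKM in TXNDC9-KO. Its log2 fold change of -0.55 (SE 0.14, adjusted p = 0.0145 by limma) does not pass the threshold used here. These are RNA levels, and the study reported reduced TXNDC9 protein by western blot in its targeted HepG2 cells. A call needed both an adjusted p below 0.01 and a difference of at least 2-fold, on log2(FPKM + 0.1), a scale that understates the change of low genes. Of the 13246 genes tested, 15.3% were called lower and 14.2% called higher in TXNDC9-KO, so that 48.3% of the calls were higher. The FPKM sums were 805816 and 971102 in WT and 535973 and 568279.5 in TXNDC9-KO, and when every library was rescaled to the same sum (TPM), 90.7% of the calls were higher. When each library was instead centred on its median, 35.8% were higher. Over the tested genes the median log2 fold change was -0.09 as deposited, 0.59 after rescaling to TPM and -0.23 after centring, and member values are also given relative to it where that matters.

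The promoters of FOS and FOSB are printed here because both genes were far higher in TXNDC9-KO, and because they are the textbook case of a promoter that answers to serum and cyclic AMP. Start sites were taken from RefSeq (GRCh38.p14, hg38), which matched 8 of the 9 genes in the table used here, all but FOSL1. The stretches run 5′ to 3′ on the strand of the gene and end 21 bases before the start site. Capitals mark, in order of appearance, the CArG box bound by SRF, the AP-1-like letters TGCGTCA, the core TGACG of a cyclic AMP response element, and the TATA box letters TATAAA. The FOS stretch is chr14:75278508-75278807 on the plus strand, and the FOSB stretch is chr19:45467676-45467975 on the plus strand.
FOS: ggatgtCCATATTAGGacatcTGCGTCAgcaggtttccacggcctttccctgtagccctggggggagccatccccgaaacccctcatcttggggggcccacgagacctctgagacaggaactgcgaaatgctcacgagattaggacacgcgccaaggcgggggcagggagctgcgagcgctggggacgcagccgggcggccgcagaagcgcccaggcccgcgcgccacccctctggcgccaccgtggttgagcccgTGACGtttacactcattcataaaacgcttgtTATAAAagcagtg
FOSB: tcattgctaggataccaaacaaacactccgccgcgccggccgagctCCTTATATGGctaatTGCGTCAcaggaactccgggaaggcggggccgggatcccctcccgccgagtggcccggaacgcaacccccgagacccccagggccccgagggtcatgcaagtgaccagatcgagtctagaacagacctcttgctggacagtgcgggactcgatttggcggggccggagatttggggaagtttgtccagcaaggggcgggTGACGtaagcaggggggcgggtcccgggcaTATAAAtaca

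In FOS the CArG box lay 314 to 305 bases before the start site, TGCGTCA 299 to 293, TGACG 64 to 60 and TATAAA 33 to 28. In FOSB the same 4 sets of letters came in the same order, with the CArG box at 274 to 265, TGCGTCA at 259 to 253, TGACG at 60 to 56 and TATAAA at 30 to 25. FOSB also held TGACGTCA at 325 to 318, just outside the printed stretch. Over the 400 bases before each of 35116 RefSeq start sites, searched on both strands, a CArG box was found in 1.90% of windows, TGCGTCA in 2.79%, TGACG in 27.9% and TATAAA in 17.1%. TGCGTCA holds the letters of TGACG read on the other strand, so those 2 searches overlap. A CArG box with TGCGTCA at most 20 bases after it was found in 2 of the 35116 windows, those of FOS and FOSB. The search was for the arrangement printed above, so their match was fixed in advance. No other tested gene held it, so it could not be set against the calls. A match of letters is a description and does not show that a factor was bound. Another 214 tested genes held a CArG box in this window, and 16.4% of them were called higher and 14.5% lower, beside the 14.2% and 15.3% of all tested genes.

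JUND and JUN are printed next, since they stand for the other kind of AP-1 promoter, with no CArG box and no TATAAA in the window. Capitals mark the ATF and AP-1 letters (TGACGTCA in JUND, TGACATCA in JUN) and CCAAT. The JUND stretch is chr19:18281683-18281832 on the minus strand, and the JUN stretch is chr1:58784098-58784177 on the minus strand.
JUND: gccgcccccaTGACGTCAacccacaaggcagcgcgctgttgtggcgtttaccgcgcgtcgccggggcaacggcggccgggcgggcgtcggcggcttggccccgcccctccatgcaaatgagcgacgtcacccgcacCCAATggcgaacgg
JUN: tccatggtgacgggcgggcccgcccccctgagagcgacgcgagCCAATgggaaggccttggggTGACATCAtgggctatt

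In JUND, TGACGTCA lay 200 to 193 bases before the start site and CCAAT 74 to 70. In JUN, CCAAT lay at 87 to 83 and TGACATCA at 67 to 60. The core TGACG was not marked separately here, but JUND and JUN held it too. JUND held it at 200 to 196, inside TGACGTCA, and on the other strand at 86 to 82. JUN held it at 123 to 119, and on the other strand at 347 to 343 and 321 to 317. Taken singly, TGACGTCA was in 1.89%, TGACATCA in 2.93% and CCAAT in 43.4% of the 35116 windows, beside 1.90% for the CArG box. Pairs of these letters were not counted. ATF3 held TGACATCA 123 to 116 bases before 1 of its start sites, with CCAAT on the other strand at 25 to 21. Before another of its start sites it held TATAAA at 230 to 225. The AP-1 site TGAGTCA, present in 6.10% of windows, was in none of those of the 8 genes. JUNB held TGACG at 137 to 133, CCAAT at 67 to 63 and TATAAA at 31 to 26. FOSL2 held TGACG and CCAAT only, and JDP2 held TGACG at 1 of 3 start sites and none of the other letters.

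Of the 9 genes, FOSB and FOS differed most. FOS (ENSG00000170345, chr14:75278826-75282230, plus strand, 4 exons), the first subunit found and the usual partner of JUN, was at 31.1 and 18.5 FPKM in WT and at 223 and 224 FPKM in TXNDC9-KO. Both TXNDC9-KO values stood above both WT values, and the WT libraries differed more from each other than the TXNDC9-KO libraries did. The means were 24.8 ± 8.92 and 223.7 ± 0.885 FPKM (SD, n = 2), 9.01-fold apart, with a log2 fold change of 3.21 (SE 0.24) and a rank above 99.2% of all tested genes. The log2 fold change of FOS was 3.89 after rescaling to TPM and 3.57 once transcript length and GC content were corrected for in every library. In these bulk libraries a larger share of cells with FOS RNA and more FOS RNA per cell cannot be told apart.

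FOSB (ENSG00000125740, chr19:45467995-45475179, plus strand, 4 exons), the closest relative of FOS, was near 0 in WT, at 0.293 and 0.250 FPKM. It was at 13.5 and 12.6 FPKM in TXNDC9-KO, so that the groups lay far apart and the libraries within each were close. The means of 0.271 ± 0.0307 and 13.03 ± 0.670 FPKM (SD, n = 2) were 48.0-fold apart, and the log2 fold change of 5.15 (SE 0.20) ranked above 99.9% of tested genes. FOSB passed the filter of a mean above 1 FPKM only through the TXNDC9-KO libraries, so its rank and call are descriptions. Because the WT level was low, the log2 fold change of FOSB moved with the pseudocount, from 3.46 with 1 FPKM to 5.54 with 0.01 FPKM. FOSB shares part of its locus with ERCC1, a DNA repair gene on the opposite strand, which was at 57.9 and 68.3 FPKM in WT and 26.1 and 25.8 FPKM in TXNDC9-KO, the opposite direction. Whether reads were assigned by strand is not given in the sources used here.

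**Figure D1:**
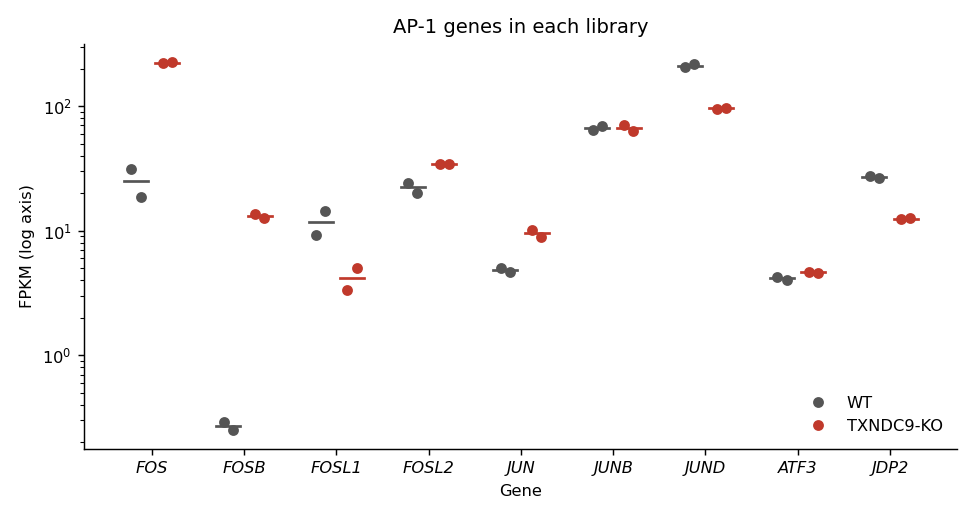
FPKM on a log axis for each of the 9 AP-1 genes, with 1 point per library (grey, WT; red, TXNDC9-KO) and a line at each group's mean of 2 libraries. FOS and FOSB lie far higher in TXNDC9-KO, FOSL1, JUND and JDP2 lower, and JUNB at the same level in both groups.

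The other FOS-type subunits went separate ways. FOSL1 (ENSG00000175592, chr11:65892049-65900573, minus strand, 4 exons), also known as FRA1 and linked to invasive growth, was at 9.20 and 14.3 FPKM in WT and 3.37 and 4.99 FPKM in TXNDC9-KO. The groups did not overlap, and each group's libraries differed by about as much in proportion. The means of 11.7 ± 3.59 and 4.18 ± 1.14 FPKM (SD, n = 2) were 2.81-fold apart, with a log2 fold change of -1.46 (SE 0.27). That value was -0.79 after rescaling to TPM and -0.70 after the correction for length and GC content, and neither passed the call. Set against the median of all genes, it was -1.37 as deposited and -1.38 in TPM. FOSL1 was also no longer called without WT 2 (log2 fold change -1.15), without the filter on low values, or without the trend in the prior variance.

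FOSL2 (ENSG00000075426, chr2:28392448-28417317, plus strand, 4 exons), or FRA2, was at 24.3 and 20.2 FPKM in WT and at 34.1 and 34.0 FPKM in TXNDC9-KO. Both TXNDC9-KO libraries were higher, with means of 22.2 ± 2.88 and 34.1 ± 0.0387 FPKM (SD, n = 2) and a log2 fold change of 0.62 (SE 0.12), under the 2-fold needed for a call. The value was 1.30 after rescaling to TPM, which passed the call, and 0.28 after the correction for length and GC content. The size of this difference therefore depended on the treatment of the values. Relative to the median of all genes, FOSL2 was at 0.71 as deposited, 0.71 in TPM and 0.32 after the correction. FOSL2 overlaps the antisense gene FOSL2-AS1, which stayed under 1 FPKM in every library, and the lncRNA gene ENSG00000270640 on the same strand, at 4.18 and 1.59 FPKM in WT and listed at 0 and at 2.09 FPKM in TXNDC9-KO.

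The balance among the FOS-type genes differed with these levels. The 4 genes summed to 64.9 and 53.3 FPKM in WT and to 274 and 276 FPKM in TXNDC9-KO. FOS made up 48.0% and 34.8% of that sum in WT and 81.4% and 81.3% in TXNDC9-KO. FOSL2 supplied 37.4% and 37.9% in the WT libraries, less than FOS in WT 1 and more in WT 2, and 12.4% and 12.3% in TXNDC9-KO. The share of FOSL1 was 14.2% and 26.8% in WT against 1.23% and 1.81%, while that of FOSB was 0.452% and 0.469% against 4.93% and 4.55%. Shares within a library do not depend on how the library was scaled, but they were not corrected for transcript length or GC content.

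**Figure D2:**
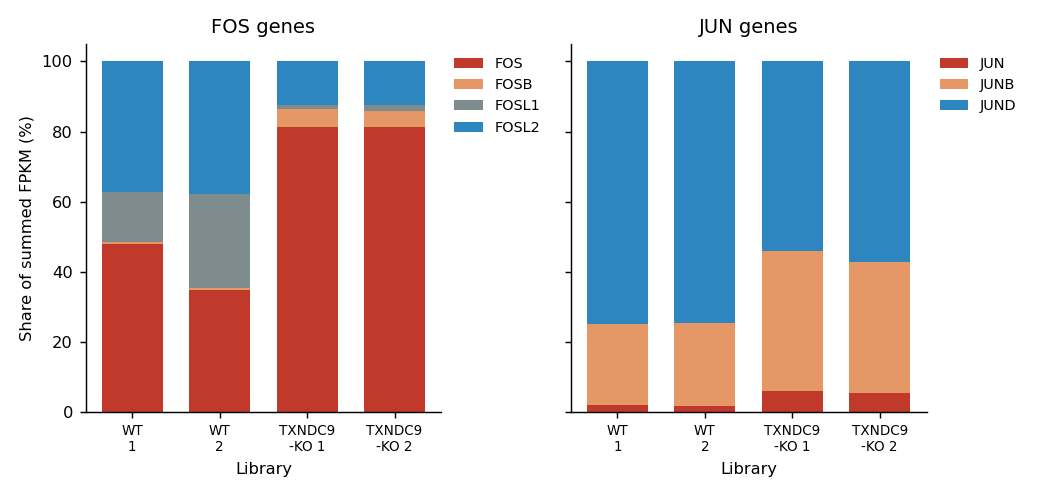
Share of each gene in the summed FPKM (%) of the 4 FOS genes (left) and the 3 JUN genes (right), with 1 stacked bar per library. In these values, not corrected for length or GC content, FOS holds 81.4% and 81.3% of the FOS-type sum in TXNDC9-KO. JUND holds less of the JUN-type sum there than in WT.

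Among the JUN-type genes the most abundant one was lower. JUND (ENSG00000130522, chr19:18279694-18281622, minus strand, 1 exon) was at 205 and 218 FPKM in WT and at 95.3 and 96.7 FPKM in TXNDC9-KO. The groups lay well apart, with means of 211 ± 8.52 and 96.0 ± 0.998 FPKM (SD, n = 2), 2.20-fold apart, and a log2 fold change of -1.14 (SE 0.11). The transcript of JUND had the highest GC content of the 9, 69.9%, against a median of 48.5% over the tested genes. Its log2 fold change was -0.46 after rescaling to TPM and -0.11 after the correction for length and GC content, neither of them called, and relative to the median of all genes it was -1.05 as deposited and -1.04 in TPM.

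JUNB (ENSG00000171223, chr19:12791486-12793315, plus strand, 1 exon), which can dampen JUN activity, was at 63.9 and 69.3 FPKM in WT and at 70.3 and 63.6 FPKM in TXNDC9-KO. It was the only 1 of the 9 genes whose groups overlapped, with a log2 fold change of 0.01 (SE 0.11) as deposited. The sign of that value was not stable. It was 0.69 in TPM, -0.14 after centring and 0.96 after the correction for length and GC content, which stayed under 2-fold. With the median of all genes taken off, it was 0.10 as deposited, in TPM and after centring, and 1.01 after the correction. JUNB shares part of its locus with HOOK2 on the opposite strand, at 6.95 and 9.77 FPKM in WT and 3.67 and 4.01 FPKM in TXNDC9-KO.

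JUN (ENSG00000177606, chr1:58776845-58784048, minus strand, 1 exon), the subunit with the strongest activating domain in the family and a target of JNK kinases, was low, at 5.03 and 4.65 FPKM in WT and 10.2 and 8.95 FPKM in TXNDC9-KO. Both TXNDC9-KO libraries stood above WT, and the means of 4.84 ± 0.267 and 9.58 ± 0.898 FPKM (SD, n = 2) were 1.98-fold apart. The log2 fold change of 0.97 (SE 0.13) therefore fell just short of the 2-fold that a call needs, and it was 1.65 in TPM and 1.18 after the correction, both called, and it was called at 1.02 without WT 1. JUN was thus the gene nearest to the threshold on the outside, and JDP2, at -1.11, the nearest on the inside. Set against the median of all genes, JUN was at 1.06 as deposited and at 1.06 in TPM.

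The 3 JUN-type genes summed to 274 and 291 FPKM in WT and 176 and 169 FPKM in TXNDC9-KO, of which JUND held 74.9% and 74.6% in WT and 54.2% and 57.1% in TXNDC9-KO. JUNB went from 23.3% and 23.8% to 40.0% and 37.6%, and JUN from 1.83% and 1.60% to 5.81% and 5.29%. The FOS-type sum divided by the JUN-type sum was 0.237 and 0.183 in WT and 1.56 and 1.63 in TXNDC9-KO. In the values as deposited, then, JUN-type transcripts outnumbered FOS-type ones per length in WT, and in TXNDC9-KO the order was the other way round. These sums, shares and ratios were not corrected for transcript length or GC content. With that correction the log2 fold change was -0.11 for JUND, 0.96 for JUNB and 3.57 for FOS, and the sums were not recomputed. The ratio of FOS to JUND was 0.152 and 0.0852 in WT and 2.34 and 2.32 in TXNDC9-KO.

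Of the 2 repressive partners, JDP2 (ENSG00000140044, chr14:75427716-75474111, plus strand, 4 exons), which binds AP-1 sites with JUN proteins and holds them silent, was lower in TXNDC9-KO. It was at 27.6 and 26.7 FPKM in WT and 12.3 and 12.7 FPKM in TXNDC9-KO, with means of 27.1 ± 0.589 and 12.5 ± 0.279 FPKM (SD, n = 2), 2.17-fold apart, and a log2 fold change of -1.11 (SE 0.10). The libraries of each group were close together. JDP2 is a near neighbour of FOS on chromosome 14, and the 2 genes differed in opposite directions. Its value was -0.43 in TPM, which was not called, and -1.39 after the correction for length and GC content, which was called. Relative to the median of all genes, JDP2 was at -1.02 as deposited and at -1.02 in TPM.

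ATF3 (ENSG00000162772, chr1:212565334-212620777, plus strand, 4 exons), a stress-induced factor, was at 4.27 and 4.06 FPKM in WT and 4.64 and 4.62 FPKM in TXNDC9-KO. Although the TXNDC9-KO values stood above the WT values, the means of 4.16 ± 0.147 and 4.63 ± 0.0132 FPKM (SD, n = 2) gave a log2 fold change of only 0.15 (SE 0.13), smaller in size than any other of the 9 but that of JUNB. It was 0.82 in TPM and 0.47 after the correction, and relative to the median of all genes 0.24 as deposited and 0.24 in TPM.

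Over the 9 genes, 3 were called lower (FOSL1, JUND and JDP2) and 2 called higher (FOS and FOSB), beside 15.3% and 14.2% of all tested genes, and nothing is read from these counts because the genes were proposed with results of this contrast known. Both TXNDC9-KO libraries stood above both WT libraries for 5 of the 9 and below them for 3, beside 40.1% and 45.9% of all tested genes. Without either TXNDC9-KO library limma called 0 of the 9 and 0 of all genes, with 7 of the 9 and 7129 or 7307 of all genes at an unadjusted p under 0.05. The median log2 fold change of the 9 was 0.15, against -0.09 over all tested genes.

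The order of levels was different in the groups. In WT it ran from JUND at 211 FPKM and JUNB at 66.6 FPKM through JDP2, FOS, FOSL2 and FOSL1 to JUN, ATF3 and, lowest, FOSB. JDP2 overlapped with FOS, and FOS with FOSL2, so these neighbours did not differ beyond their spread. In TXNDC9-KO the order began with FOS at 223.7 FPKM, then JUND at 96.0 FPKM and JUNB at 67.0 FPKM, and went on with FOSL2, FOSB, JDP2, JUN, ATF3 and FOSL1. There the pairs FOSB and JDP2, and ATF3 and FOSL1, overlapped.

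**Figure D3:**
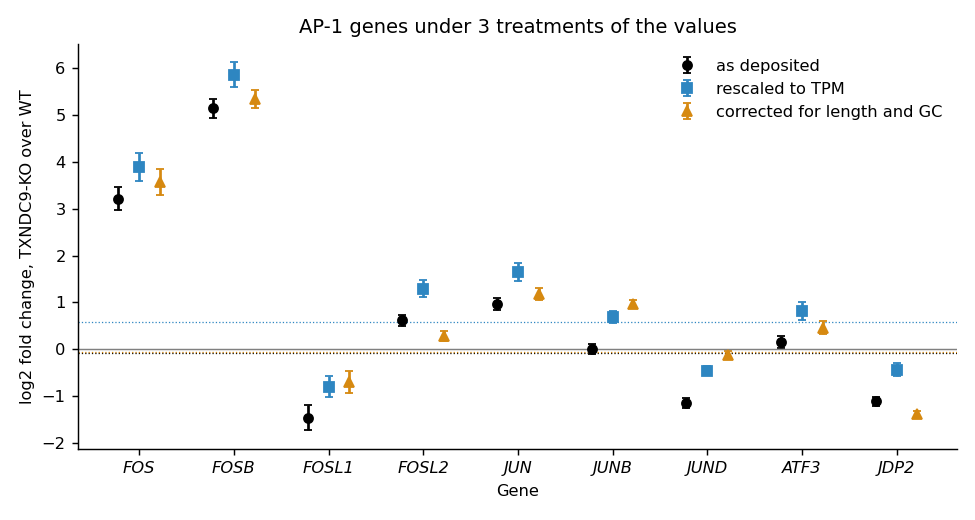
log2 fold change of TXNDC9-KO over WT for the 9 genes (bars, SE of the fit) with values as deposited (black), rescaled to TPM (blue) and corrected for transcript length and GC content (orange), with dotted lines at the median of all tested genes. FOS and FOSB stay above 3 under each, whereas JUND goes from -1.14 to -0.11.

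Transcript length and GC content went with the fold change across all genes, and this touches each AP-1 gene differently. Over 13112 genes with both values, longer transcripts had higher log2 fold changes (Spearman correlation 0.495) and GC-rich ones lower (-0.462), given as a description, since genes share libraries and are not replicates. The WT libraries also differed from each other along length, with a correlation of -0.325 between the log2 ratio of WT 2 to WT 1 and length, against -0.0625 for TXNDC9-KO. FOS (2104 nt, 52.8% GC), JUNB (1830 nt, 64.9%) and JUND (1929 nt, 69.9%) are shorter than the median tested transcript of 2866.5 nt. FOSL2 (6713 nt, 53.3%) and JDP2 (5378 nt, 51.8%) are longer. After the correction, FOS, FOSB and JUN were called higher and JDP2 lower, and FOSL1 and JUND were not called.

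**Figure D4:**
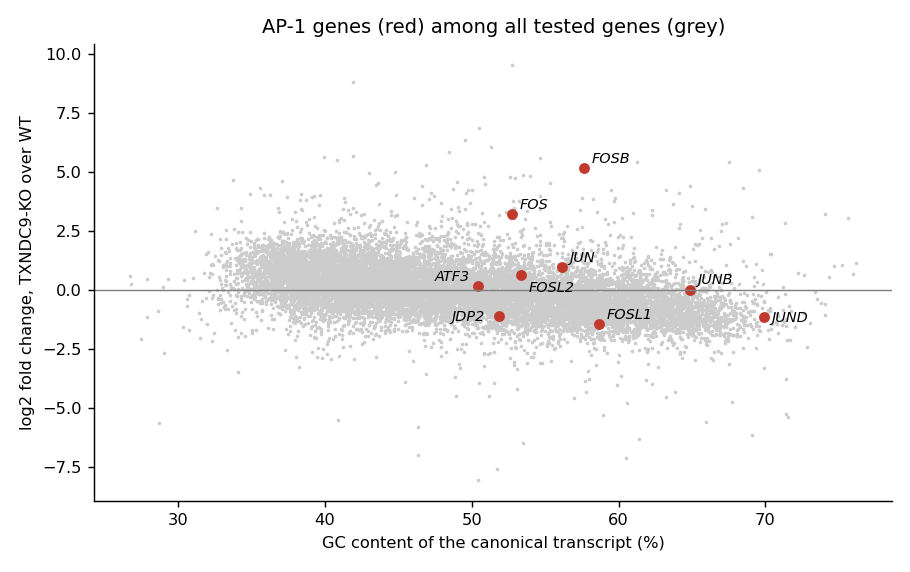
log2 fold change of TXNDC9-KO over WT against the GC content (%) of the canonical transcript, for the tested genes (grey) and the 9 AP-1 genes (red). The grey cloud slopes down with GC content (Spearman -0.462), with FOS and FOSB above it, and JUND, at 69.9% GC, inside it.

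The genes outside the family whose pattern over the 4 libraries was most like that of FOS or of JUND were found by a distance. It was Euclidean, between log2(FPKM + 0.1) values centred on each gene's own mean. Nearest to FOS were RAPGEF2 (0.164), SRCAP (0.183) and RNF169 (0.195). RAPGEF2, a RAP1 exchange factor, was at 6.79 and 4.26 FPKM in WT and 45.1 and 51.7 FPKM in TXNDC9-KO. Nearest to JUND were KIN (0.0199), AGAP2-AS1 (0.0228) and PWWP2B (0.0252), and KIN was at 10.3 and 11.0 FPKM in WT and 4.81 and 4.86 FPKM in TXNDC9-KO. With 4 libraries many genes share such a pattern.

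The 4 sets of genes around AP-1 that follow were listed by role, with earlier results of these data known, so their p-values describe these libraries and are no independent support. Of 21 kinases and factors upstream, 20 were tested, 4 rose and 1 fell in TXNDC9-KO, beside 14.2% and 15.3% of all tested genes, with a median log2 fold change of 0.52 against -0.09 over all tested genes. MAPK8, which encodes the JUN kinase JNK1, rose from 5.00 to 15.4 FPKM (log2 fold change 1.60, limma adjusted p = 5.12e-04), and RPS6KA3, the kinase RSK2, from 14.5 to 41.2 FPKM (1.51, adjusted p = 7.64e-04). MAPK14, the kinase p38 alpha, also rose (log2 fold change 1.12). MAP2K2, a MAP kinase kinase, fell from 319 ± 81.7 to 107 ± 4.71 FPKM (SD, n = 2, log2 fold change -1.56, adjusted p = 0.00124). SRF, the factor of the CArG box printed above, did not pass, at 15.8 FPKM in WT and 15.7 FPKM in TXNDC9-KO (log2 fold change -0.02). ELK3, ELK4 and CREB1 stood higher in both TXNDC9-KO libraries than in both WT libraries but under 2-fold (log2 fold changes 0.88, 0.98 and 0.95), and ELK1 had a log2 fold change of 0.37. After the correction for length and GC content, ELK3, ELK4, CREB1 and ELK1 were at 0.40, -0.14, -0.24 and 0.72. MAPK3, MAP2K7 and RPS6KA1 stood lower in both TXNDC9-KO libraries, also under 2-fold (log2 fold changes -0.71, -0.31 and -0.37). Their corrected values were 0.12, 0.21 and -0.06.

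Of 17 other bZIP genes that pair with FOS or JUN proteins, 11 were tested, 2 rose and 2 fell, beside 14.2% and 15.3% of all tested genes, with a median of 0.20. BACH1, a heme-sensing repressor, rose from 4.44 to 16.5 FPKM (log2 fold change 1.87, limma adjusted p = 5.01e-04). ATF2, a JUN partner on sites like that of the JUN promoter, rose from 5.02 to 12.9 FPKM (1.34, adjusted p = 5.38e-04). BATF3, best known in immune cells, fell from 3.21 to 0.727 FPKM (adjusted p = 0.00531), and DDIT3, the stress factor CHOP, from 26.8 to 11.3 FPKM (-1.21, adjusted p = 0.00423). Without WT 2 neither of the falls was called (DDIT3 -0.89, BATF3 adjusted p = 0.0115 by limma).

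All 10 genes of FOS and JUN turnover were tested, and 2 rose and 0 fell by limma, beside 14.2% and 15.3% of all tested genes, with a median of 0.39 (5 higher and 1 lower at an unadjusted p under 0.05). ZFP36, or TTP, binds AU-rich elements and speeds the decay of early transcripts such as that of FOS, and it rose from 2.12 ± 0.503 to 7.56 ± 0.543 FPKM (SD, n = 2, log2 fold change 1.81, adjusted p = 8.74e-04). ITCH, a ubiquitin ligase for JUN proteins, rose from 4.97 to 15.9 FPKM (1.65, adjusted p = 5.12e-04). ZFP36L1 and ZFP36L2, relatives of ZFP36, did not pass (log2 fold changes 0.89 and 0.53).

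Of 26 genes described as AP-1 targets, 16 were tested, and 4 fell and 0 rose by limma, beside 15.3% and 14.2% of all tested genes, with a median of -0.25 (7 lower and 1 higher at an unadjusted p under 0.05). MT2A, a metallothionein, fell from 1263 ± 361 to 218 ± 20.6 FPKM (SD, n = 2, log2 fold change -2.51, limma adjusted p = 6.16e-04). PLAUR, the urokinase receptor, fell from 26.7 to 6.70 FPKM (-1.96, adjusted p = 5.62e-04), TIMP1, an inhibitor of matrix proteases, from 423 to 128 FPKM (-1.69, adjusted p = 0.00124), and TGFB1 from 51.5 to 18.5 FPKM (-1.47, adjusted p = 5.32e-04). Matrix protease genes MMP1, MMP3, MMP9, MMP10 and MMP13 were each under 1 FPKM in every library and were not tested. After the correction for length and GC content, BACH1, ZFP36, PLAUR and MT2A were still called, and the other genes named in the 4 sets as rising or falling were not.

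**Figure D5:**
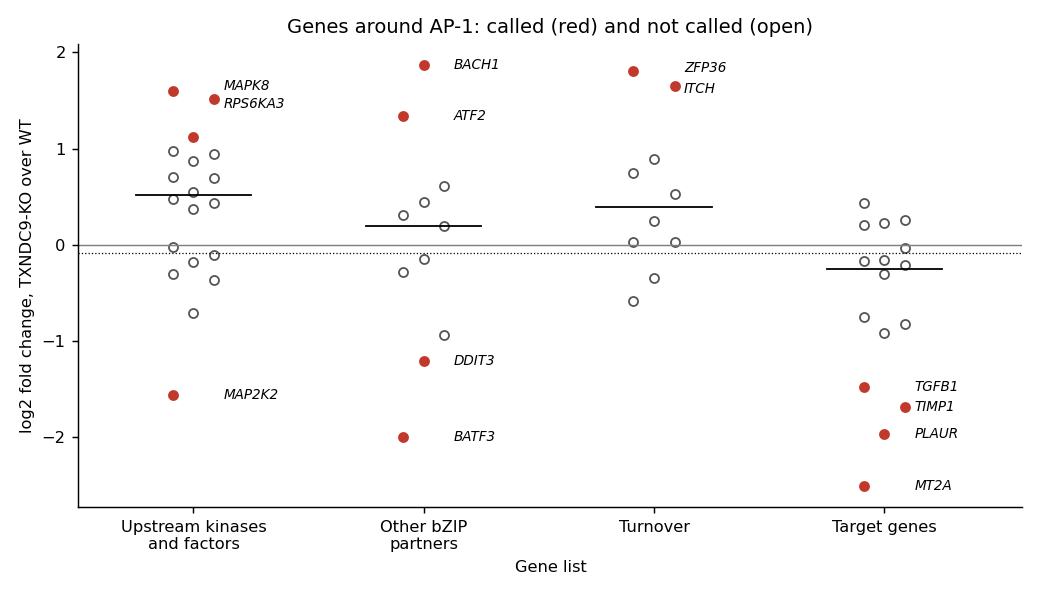
log2 fold change of TXNDC9-KO over WT for the tested genes of the 4 sets, less 1 upstream gene not reported here, called genes in red and others open, with a bar at each set's median and a dotted line at that of all tested genes. Upstream kinases MAPK8 and RPS6KA3 lie above 1.5, and the 4 called targets lie below -1.4.

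FOXA1, a liver and breast pioneer factor that the study examined together with JUND and FOSL2, was at 4.45 and 2.92 FPKM in WT and 7.61 and 8.53 FPKM in TXNDC9-KO (log2 fold change 1.14, limma adjusted p = 0.00527). FOXA1 lost its call without WT 2 (log2 fold change 0.84), without either TXNDC9-KO library, with a pseudocount of 1, without the filter, after centring, without the trend and after the correction for length and GC content (log2 fold change 1.05).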

How the data were processed

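RNA-seq was performed on 4 libraries, 2 from wild-type and 2 from TXNDC9-KO cells. The deposited values are FPKM, which the authors obtained with Cuffdiff (Cufflinks) after alignment to hg38 by TopHat2. The sources used here give no tool versions, scaling method or strand setting. The files hold no counts, and at most 4.53% of low genes shared a ratio between 2 libraries, so no step worth 1 read was found and the depth is unknown. The deposited table also holds the authors' averages and, from their own comparison, log2 fold changes with p-values and q-values, which were not used.

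Of 231916 lines, 57979 held values, and each identifier occurred 4 times on lines out of register with the symbols. The order of the identifiers was restored, after which all 9 AP-1 genes had their own GENCODE release 44 identifier. No AP-1 symbol was repeated. Genes with a mean above 1 FPKM entered limma 3.58.1 (R 4.3.3) as log2(FPKM + 0.1) (trend in the prior variance, two-sided, Benjamini-Hochberg adjustment over 13246 genes, no replicate block). The members and gene lists were chosen with earlier results of these data known, so no p-value is given for the AP-1 genes, and those of the listed genes are no independent support. Around them, TXNDC9, FOXA1, the 4 called genes with the largest change in each list and the 3 genes nearest to FOS and to JUND were named. The values of 1 upstream gene are not reported here, although the counts include it. MAPK14 and genes that did not pass were named after their values were seen.

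Alternatives were pseudocounts of 1 and 0.01, no filter, a mean above 5 FPKM, rescaling to TPM, centring, the replicate block, no trend, an adjusted p under 0.05, a loess correction (span 0.3) for transcript length and GC content with and without the block, and leaving out each library. The steps were tested on simulated data. Motifs were searched in hg38 with pysam 0.24.0, and Python 3.11.15 with pandas 2.3.3, numpy 2.4.6 and matplotlib 3.10.9 was used.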

Additional observations from a re-analysis of the deposited data

How the results depend on the processing

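The directions of FOS, FOSB, FOSL1, FOSL2, JUN, JUND and JDP2 were the same under each alternative run, ATF3 went from 0.82 in TPM to 0.01 after centring and was not tested at a mean above 5 FPKM, and the cause of the changes in calls that follow was not tested. Rescaling to TPM gave 447 genes lower and 4380 higher. It gave 0 AP-1 genes lower (9 of 9 at an unadjusted limma p under 0.05 in either direction) and 4 higher. It also gave 0 upstream genes lower and 13 higher, 0 bZIP partners lower and 4 higher, 5 turnover genes higher and 1 target gene higher. The sign of TXNDC9 was reversed, to a log2 fold change of 0.12, still below the median of 0.59 over all tested genes. As deposited, TXNDC9 was at -0.55 and that median at -0.09. The correction for length and GC content gave 969 genes lower and 841 higher, or 975 and 841 with the replicate block. With or without the block it gave 1 AP-1 gene lower, 0 upstream genes lower and 1 higher, 0 bZIP partners lower and 1 higher, 1 turnover gene higher and 2 target genes lower. A mean above 5 FPKM gave 1220 genes higher, 1 bZIP partner lower and 1 turnover gene higher. No filter gave 0 bZIP partners lower (4 at an unadjusted limma p under 0.05), and no trend gave 1.

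Leaving out 1 library gave 0 to 2633 genes lower and 0 to 2136 higher, 0 to 3 AP-1 genes in either direction, 0 to 1 upstream genes lower and 0 to 6 higher, 0 to 3 bZIP partners lower and 0 to 2 higher, 0 to 2 turnover genes higher and 0 to 4 target genes lower. The counts of 0 came without either TXNDC9-KO library and, for bZIP partners lower, also without WT 2 (3 at an unadjusted limma p under 0.05). Without a TXNDC9-KO library limma takes the spread from the WT pair alone and the lone library is assumed to vary like it, and the smallest adjusted p was 0.0160 or 0.0232. The replicate block, with no correction, gave 2146 genes lower and 1960 higher and changed no call of an AP-1 gene. Libraries with the same number did not deviate together (correlation -0.0904 over 13246 genes). This rests on 1 difference per group, so it cannot exclude a shared batch or pairing, which the labels do not give. Summing lines of 1 symbol was not run, as no AP-1 symbol was repeated. Depth is unknown, and with 2 libraries per group outlying libraries could not be tested for.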
